A study of Mus musculus with 8 samples.

Results

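DOCK proteins are guanine nucleotide exchange factors that load the small GTPases Rac and Cdc42 with GTP. The 9 DOCK genes described here, Dock1, Dock2, Dock4, Dock5, Dock6, Dock8, Dock9, Dock10 and Dock11, are those listed for the family in this series, out of 22180 genes that the platform annotation names by a single symbol. Each has 1 probe set with a single symbol, so no other Dock8 probe set was there to compare. The genes were selected on their measured log2 values in prednisolone against vehicle mice, so their differences between the groups are given as a description, with no test. All 9 lay above the cut on dim genes, a mean log2 value of 5.82, and were among the 14787 genes that entered the statistics.

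The arrays measured total RNA from white fat, the left epididymal pad, with 1 array for each of 8 C57BL/6 males. Both groups were weaned at 3 weeks onto the HFn-6 diet, a high-fat food rich in n-6 fatty acids in which fat gave 45% of the energy. From 6 weeks of age 4 mice (GC+) received the synthetic glucocorticoid prednisolone each day, mixed into sweet potato puree, at a labelled dose of 40 mg per kg per square metre, and 4 mice (GC-) received the puree alone. Fat was taken after 4 weeks of treatment, at 10 weeks of age. All values are log2 expression values, and a mouse is named by its group and the replicate number of its label.

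DOCK proteins carry out exchange through a DHR2 domain rather than the DH domain of most other exchange factors for such GTPases, and bind membrane phospholipids through a DHR1 domain. Members of DOCK-A (Dock1, Dock2, Dock5) and DOCK-B (Dock4) act on Rac and work with ELMO adaptor proteins, DOCK-C members act on Cdc42 or Rac (Dock6, Dock8), and DOCK-D members on Cdc42 (Dock9, Dock10, Dock11). In blood cells Dock2 and Dock8 are needed for migration, and loss of DOCK8 in people causes an immunodeficiency. In adipose tissue such cells are resident leukocytes, so a whole fat pad mixes DOCK transcripts of several cell types.

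Dock8 and Dock2 are both known as blood cell genes. They took different courses across the mice, as described below. The sequences before their starts also differ, and a link between sequence and course was not tested. The 250 bases before the annotated start are shown for both, from RefSeq on GRCm38.p6, written along each gene's own strand. Capitals mark GAGGAA or its complement TTCCTC, the core of the box bound by the myeloid factor PU.1, and GGGCGG or its complement CCGCCC, the GC box bound by Sp factors.
Dock8, chr19:24999279-24999528, plus strand: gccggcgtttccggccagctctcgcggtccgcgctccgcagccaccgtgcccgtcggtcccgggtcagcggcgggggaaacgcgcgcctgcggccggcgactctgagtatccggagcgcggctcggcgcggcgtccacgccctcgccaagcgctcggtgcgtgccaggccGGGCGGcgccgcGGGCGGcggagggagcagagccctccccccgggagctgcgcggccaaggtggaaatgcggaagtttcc
Dock2, chr11:34783906-34784155, minus strand: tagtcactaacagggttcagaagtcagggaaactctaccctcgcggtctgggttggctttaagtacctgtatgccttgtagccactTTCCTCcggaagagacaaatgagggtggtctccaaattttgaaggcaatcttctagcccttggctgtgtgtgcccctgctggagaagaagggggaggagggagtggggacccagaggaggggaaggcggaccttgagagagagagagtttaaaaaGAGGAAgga
The Dock8 window held 43 CG dinucleotides, more than or as many as 99.5% of 32851 promoter windows of that length, with 2 GC boxes and 0 PU.1 boxes. The Dock2 window held 4 CG dinucleotides, against a median of 6 over all windows, with 2 PU.1 boxes and 0 GC boxes. Over all windows and on both strands, 23.3% held the PU.1 box letters and 32.7% the GC box letters.

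RefSeq promoter entries matched 8 of the 9 genes, in 11 windows. The glucocorticoid receptor's palindromic element, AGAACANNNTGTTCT, was in 0 of the 11, and in 0.00913% of all windows. One arm of it, TGTTCT on either strand, was in 1 of them, the Dock9 window with 3 CG dinucleotides, and in 16.1% of all windows. The TATA box letters TATAAA were in 0 of the 11 and in 12.4% of all windows. Windows rich in CG belonged to Dock1 (29), Dock4 (24), Dock6 (20) and Dock11 (18), and to 1 of several windows each of Dock9 (34) and Dock10 (27). GC boxes were not particular to Dock8. They were also in windows of Dock1 (3), Dock4 (2), Dock6 (5), Dock9 (5), Dock10 (2) and Dock11 (2). PU.1 box letters were also in the Dock1 window (1) and in a Dock9 window (1). A match is only a match of letters in this window.

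Some arrays stood apart. Epididymal transcripts were most abundant in prednisolone mouse 2, where Gpx5, a glutathione peroxidase of that duct, read 13.81, and in vehicle mice 1 (13.78) and 4 (13.60). Gpx5 was also plentiful in prednisolone mouse 1 (11.27) and above the rest in vehicle mouse 3 (8.69), where the remaining 3 mice read between 4.19 and 4.76. A score over 18 measured epididymis markers (the average deviation of the markers from their own means over the arrays) was 2.91, 1.89 and 2.59 in these 3 mice and between -2.22 and 0.19 in the other 5. The differences of the DOCK genes are therefore also given for these 5 mice of low score, 3 with prednisolone and 2 with vehicle, which still include the intermediate prednisolone mouse 1 and vehicle mouse 3. The fat marker Adipoq, adiponectin, read between 11.74 and 12.29 on all 8 arrays. In these bulk samples, fewer cells of a type and less RNA per cell cannot be told apart. With limma, 0 of 14787 genes passed an adjusted p of 0.05 (0% called), 842 had an unadjusted p under 0.05 (5.69%), and the lowest adjusted p was 0.713.

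Dock8, an exchange factor for Cdc42 in leukocytes, was the DOCK gene that separated the groups. It read 9.57, 9.50, 9.79 and 10.31 in prednisolone mice 1 to 4 and 8.47, 8.87, 8.96 and 8.51 in vehicle mice 1 to 4. The 4 prednisolone values all exceed the 4 vehicle values, with a gap of 0.53 between the groups. The means were 9.79 ± 0.37 and 8.70 ± 0.25 (SD, n = 4 each), a difference of 1.09 ± 0.20 (standard error of the linear model) or 2.13-fold. That difference ranked number 26 from the top among the 14787 tested genes, and number 10 without prednisolone mouse 2, 39 without vehicle mouse 1 and 51 without prednisolone mouse 4. Among the 9 genes this was the only one with groups that did not overlap. Over all tested genes, 1.81% had every prednisolone mouse above every vehicle mouse and 1.39% every one below, and nothing is read from that share because the choice of genes used this contrast.

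The Dock8 difference was of similar size in the 5 mice of low epididymis score, where the means were 9.89 and 8.92 and the difference 0.97. With the epididymis score as a covariate it was 1.01 ± 0.13. Within the vehicle group, the 2 mice of high score had the 2 lowest Dock8 values. Within the prednisolone group, mouse 2, the 1 mouse of high score, also had the lowest value.

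**Figure D1:**
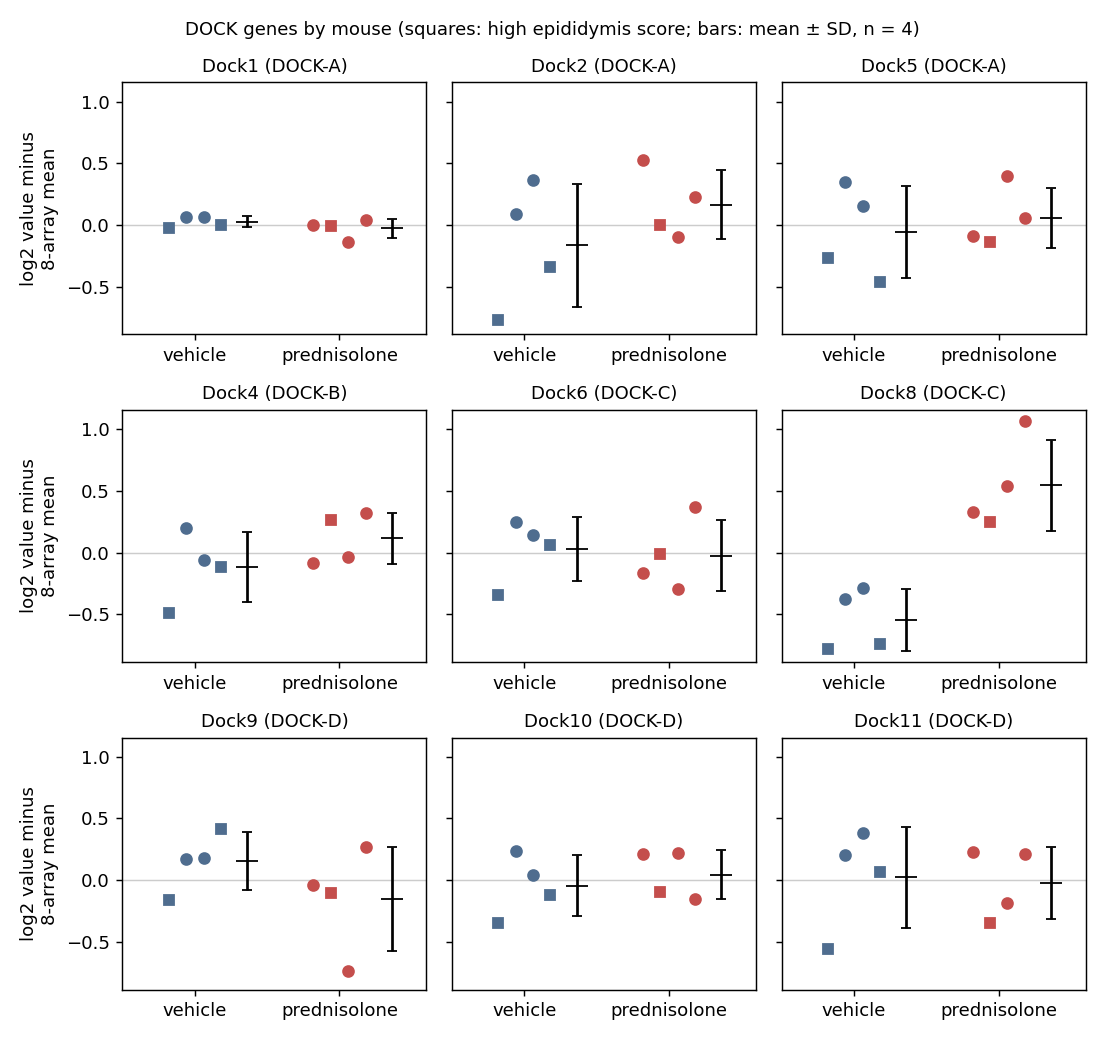
Log2 value minus the gene's 8-array mean (vertical axis) of the 9 DOCK genes in vehicle (blue) and prednisolone (red) mice, 1 point per mouse, with group means ± SD (n = 4) in black and squares for the 3 mice of high epididymis score. Dock8 is the panel in which the groups are apart, by 0.53, and Dock1 has the smallest spread.

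Pan-leukocyte markers ran in another order over the mice than Dock8. The score over 12 measured markers, 11 of them with a higher mean in prednisolone mice, ran from -0.12 to 0.50 with prednisolone and from -0.29 to 0.40 with vehicle (difference 0.13, two-sided exact permutation p = 0.457, 0.914 after Benjamini-Hochberg adjustment over 15 marker lists, with 0.0286 the smallest p that 4 against 4 allows). Prednisolone mouse 4, highest for Dock8 at 10.31, had a leukocyte score of -0.11. Vehicle mouse 3, with a score of 0.40, read 8.96, which was the highest Dock8 value of the vehicle group. Vehicle mice 1 and 4 were the lowest of that group for both Dock8 and the score (-0.22 and -0.29). Ptprc, the leukocyte antigen CD45, read 9.39, 8.93, 8.68 and 8.98 in prednisolone mice 1 to 4 and 8.61, 9.01, 9.21 and 8.51 in vehicle mice 1 to 4. The Ptprc groups overlap, with a difference of 0.16 ± 0.20 (limma adjusted p = 0.853). With the leukocyte score as a covariate the Dock8 difference was 1.08 ± 0.22.

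Lists of single leukocyte classes also overlapped between the groups. The macrophage score, over 25 measured markers of which 23 had a higher mean with prednisolone, ran from 0.03 to 0.35 in prednisolone and from -0.49 to 0.39 in vehicle mice (difference 0.40, exact permutation p = 0.143, adjusted 0.914). Vehicle mouse 3 alone made these groups overlap, since vehicle mice 1, 2 and 4 scored -0.42, -0.28 and -0.49. The macrophage score was not used as a covariate for Dock8. Adgre1, the macrophage marker F4/80, differed by 0.45 ± 0.45 (limma adjusted p = 0.823), and was highest in vehicle mouse 3 at 10.41. Its difference turned to -0.13 in the 5 mice of low epididymis score. The T and NK cell score differed by 0.10 (exact permutation p = 0.429), the dendritic cell score by 0.01 (0.914), the B and plasma cell score by -0.05 (0.657) and the granulocyte and mast cell score by -0.05 (0.771). Cd3e, a chain of the T cell receptor complex, read between 6.12 and 6.84 over the 8 arrays, with a difference of -0.11 ± 0.15 (limma adjusted p = 0.859).

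**Figure D2:**
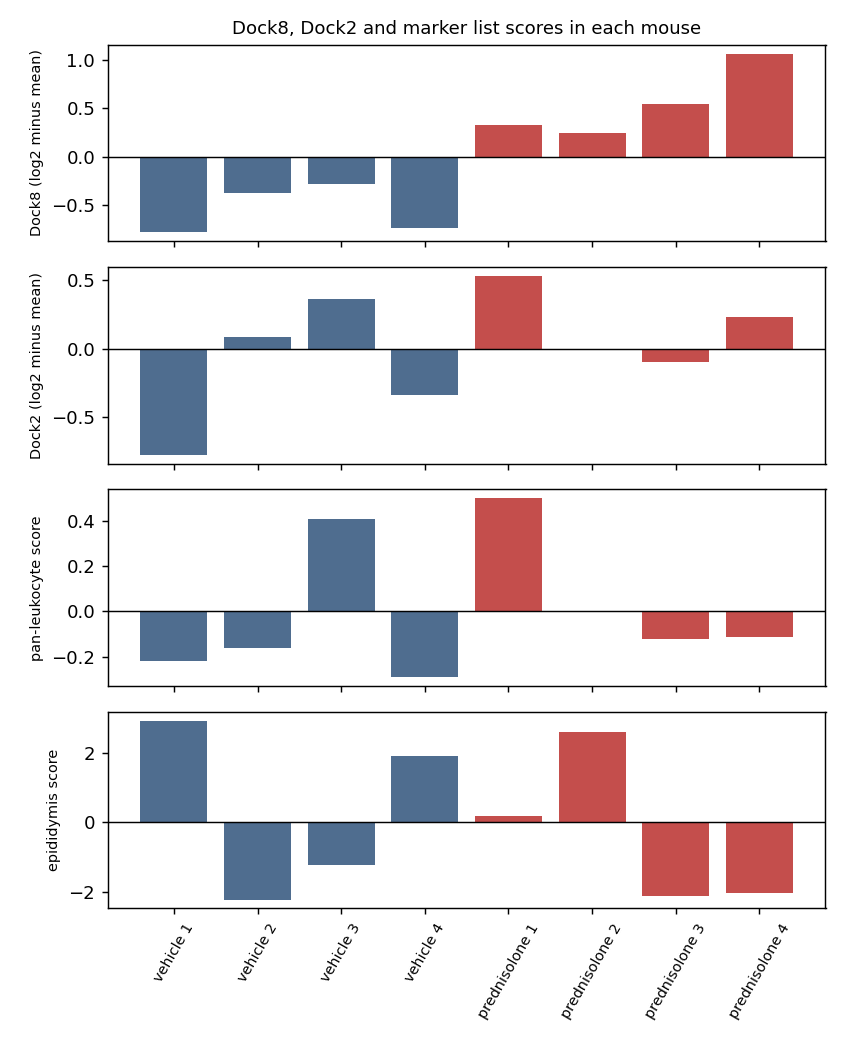
Dock8 and Dock2 (log2 value minus 8-array mean), the pan-leukocyte score and the epididymis score in each mouse, vehicle in blue and prednisolone in red. Dock8 is above its mean in the 4 prednisolone mice and below it in the 4 vehicle mice, while the leukocyte score is highest in prednisolone mouse 1 (0.50) and vehicle mouse 3 (0.40).

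The genes nearest to Dock8 over the 8 arrays, by the root mean square distance between mean-centred log2 values, were Peg10 (0.18), Id3 (0.23), Gabrr2 (0.24), Synpo2 (0.25) and Tinagl1 (0.27). Peg10 is an imprinted gene derived from a retrotransposon, Id3 an inhibitor of basic helix-loop-helix factors, Gabrr2 a GABA receptor subunit, Synpo2 an actin-binding protein of muscle and Tinagl1 a matrix protein. Peg10 read 8.87, 8.52, 9.28 and 9.21 with prednisolone and 7.79, 8.24, 8.09 and 7.66 with vehicle. Gabrr2 and Tinagl1, like Peg10, had groups that did not overlap, while those of Id3 and Synpo2 overlapped. Their differences were 1.03 ± 0.19 (Peg10), 0.84 ± 0.25 (Id3), 0.96 ± 0.29 (Gabrr2), 0.63 ± 0.22 (Synpo2) and 0.72 ± 0.19 (Tinagl1), each with a limma adjusted p of 0.768. Being near Dock8 selects genes for such a difference, so these values add nothing to it. None of the 5 is in a leukocyte list used here, but neither are the blood cell genes nearest to Dock2, given below. The lists are short, so nothing is read from this.

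Dock2, the Rac activator of leukocytes, read 9.16, 8.63, 8.54 and 8.86 in prednisolone mice 1 to 4 and 7.86, 8.72, 8.997 and 8.30 in vehicle mice 1 to 4. The groups overlap, and the lowest values are those of vehicle mice 1 and 4, both of high epididymis score. The means were 8.80 ± 0.28 and 8.47 ± 0.50 (SD, n = 4), a difference of 0.33 ± 0.25. In the 5 mice of low score the means were 8.85 and 8.86, and the difference was 0.13 without vehicle mouse 1 and 0.51 without vehicle mouse 3. With the leukocyte score as a covariate the difference over 8 mice was 0.20 ± 0.18.

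The genes nearest to Dock2 were Il10ra (distance 0.04), Arhgap30 (0.10) and Arhgap45 (0.11). Il10ra encodes the interleukin 10 receptor chain of leukocytes, and both ARHGAP proteins are GTPase-activating proteins found mainly in blood cells. Il10ra read 8.11, 7.54, 7.39 and 7.73 with prednisolone and 6.81, 7.59, 7.90 and 7.18 with vehicle. It was thus highest in prednisolone mouse 1 and lowest in vehicle mouse 1, as Dock2 was. Its difference was 0.32 ± 0.25 (limma adjusted p = 0.783), and 0.27 ± 0.20 (0.779) for Arhgap30 and 0.24 ± 0.20 (0.797) for Arhgap45.

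**Figure D3:**
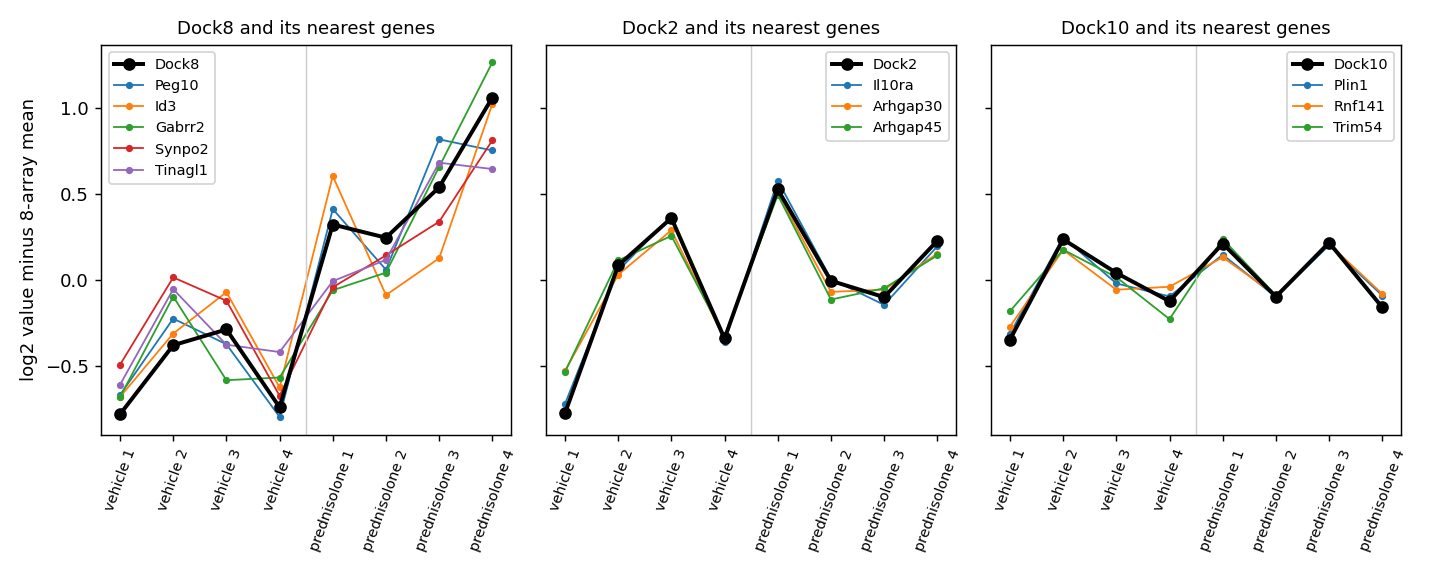
Log2 value minus 8-array mean (vertical axis) of Dock8, Dock2 and Dock10 (black) and the genes nearest to each, over the 8 mice; lines only join the values of a gene, since mice have no order. Dock2 and Il10ra nearly coincide (distance 0.04), as do Dock10 and Plin1 (0.04), and Dock8 lies at 0.18 from Peg10.

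The other DOCK-A genes, Dock1 and Dock5, are expressed in many cell types, and Dock1 is the classical partner of ELMO in the uptake of apoptotic cells. Dock1 was the steadiest of the 9 genes. It read 9.27, 9.27, 9.13 and 9.32 with prednisolone and 9.25, 9.34, 9.34 and 9.27 with vehicle, a spread over 8 arrays (SD 0.07) as small as in the lowest 3.3% of tested genes. Its means were 9.25 ± 0.08 and 9.30 ± 0.05, a difference of -0.05 ± 0.07.

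Dock5 read 8.21, 8.16, 8.69 and 8.35 with prednisolone and 8.03, 8.64, 8.45 and 7.84 with vehicle. The groups overlap, and vehicle mice 1 and 4 are again the lowest, below every prednisolone mouse. The difference was 0.11 ± 0.20, and -0.13 in the 5 mice of low epididymis score. Leaving out vehicle mouse 4 gave -0.02, leaving out prednisolone mouse 3 gave -0.0024 and leaving out vehicle mouse 2 gave 0.25, so its direction is not settled.

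Dock4, the DOCK-B gene, read 8.08, 8.42, 8.12 and 8.48 with prednisolone and 7.67, 8.36, 8.10 and 8.05 with vehicle. Vehicle mouse 1 is the lowest, and the other 3 vehicle mice lie close to or within the prednisolone range. The means were 8.28 ± 0.21 and 8.04 ± 0.29, a difference of 0.23 ± 0.16. In the 5 mice of low score both means were 8.23. Without vehicle mouse 1 the difference was 0.11.

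Dock6, the other DOCK-C gene measured and an exchange factor for Cdc42 and Rac, did not share the course of Dock8. It read 7.86, 8.02, 7.73 and 8.39 with prednisolone and 7.68, 8.27, 8.17 and 8.09 with vehicle. The groups overlap, with the lowest values in vehicle mouse 1 and prednisolone mouse 3 and the highest in prednisolone mouse 4. The difference was -0.05 ± 0.18, and -0.23 in the 5 mice of low score. It turned to 0.04 without prednisolone mouse 3.

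Dock9, an exchange factor for Cdc42, went furthest in the other direction. It read 9.36, 9.30, 8.66 and 9.67 with prednisolone and 9.24, 9.57, 9.58 and 9.81 with vehicle. Prednisolone mouse 3 is far below all others, and the remaining 7 values overlap. The means were 9.25 ± 0.42 and 9.55 ± 0.24, a difference of -0.30 ± 0.21. It was -0.35 in the 5 mice of low score and -0.11 without prednisolone mouse 3.

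Endothelial markers varied in the same mice as Dock6 and Dock9. The endothelial score, over 14 measured markers of which 2 had a higher mean with prednisolone, was -0.36 in prednisolone mouse 3 and -0.50 in vehicle mouse 1, the 2 mice with the lowest Dock6 and the lowest Dock9 values. It ran from -0.36 to 0.34 in prednisolone and from -0.50 to 0.37 in vehicle mice (difference -0.16, exact permutation p = 0.514, adjusted 0.914). Its part in the Dock6 and Dock9 values was not tested.

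Dock10 read 9.01, 8.70, 9.02 and 8.64 with prednisolone and 8.45, 9.03, 8.84 and 8.68 with vehicle. This DOCK-D gene, known from lymphocytes and neurons, showed no separation of the groups, at means of 8.84 ± 0.20 and 8.75 ± 0.25. The difference was 0.09 ± 0.15, -0.05 in the 5 mice of low epididymis score and -0.01 without vehicle mouse 1. Its nearest genes over the arrays were Plin1 (distance 0.04), the coat protein of adipocyte lipid droplets, Rnf141 (0.07), a RING finger protein, and Trim54 (0.07), a RING finger protein of muscle. Plin1 read 11.98, 11.73, 12.03 and 11.74 with prednisolone and 11.52, 12.08, 11.81 and 11.73 with vehicle, and its difference was 0.08 ± 0.13 (limma adjusted p = 0.882). Small distances are easier to reach for Dock10, which varies little (SD 0.21 over 8 arrays), than for Dock8 (SD 0.65).

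Dock11, a Cdc42 exchange factor studied in B cells and other leukocytes, read 9.28, 8.70, 8.86 and 9.26 with prednisolone and 8.49, 9.25, 9.43 and 9.12 with vehicle. Vehicle mouse 1 and prednisolone mouse 2, both of high epididymis score, are lowest. The difference was -0.05 ± 0.22, and -0.21 in the 5 mice of low score. Without vehicle mouse 1 it was -0.24, and without vehicle mouse 3 it was 0.07, so its direction is not settled.

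**Figure D4:**
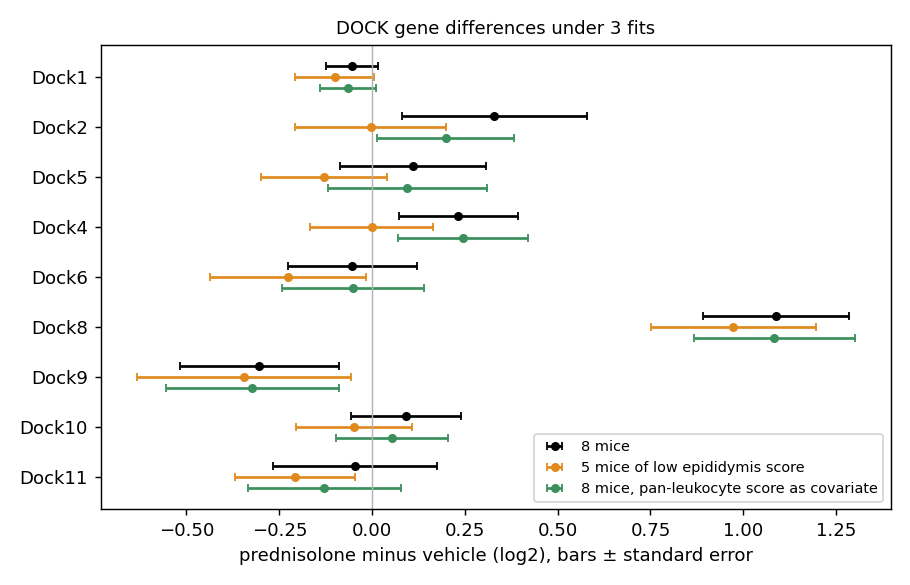
Difference of prednisolone minus vehicle means (horizontal axis, log2, bars ± standard error) of the 9 DOCK genes over 8 mice, over the 5 mice of low epididymis score, and over 8 mice with the pan-leukocyte score as covariate. Dock8 lies at 1.09, 0.97 and 1.08, and the other 8 genes between -0.35 and 0.33.

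Of the 9 genes, 5 had a higher and 4 a lower mean with prednisolone, with a median difference of 0.09, where 54.6% of tested genes were higher with a median of 0.02. In the 5 mice of low epididymis score only Dock8 remained higher and the median was -0.10. Vehicle mouse 1 had the lowest value of 6 of the 9 genes, Dock2, Dock4, Dock6, Dock8, Dock10 and Dock11, and lay below the 8-array mean for all 9. The closest pair over the arrays was Dock4 and Dock6 (distance 0.17), and the farthest was Dock8 and Dock9 (0.77). The gene nearest to Dock8 within the family was Dock4, at 0.49. Outside these 9 genes, Dock3 of DOCK-B read between 5.11 and 5.57, below the cut on dim genes.

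The rest of the Rac and Cdc42 pathway gives a setting that the choice of the DOCK genes did not use. Of 137 listed genes 121 were tested, and 0 passed an adjusted p of 0.05 in either direction with limma, against 0% of all tested genes. At an unadjusted p under 0.05 there were 3 higher and 4 lower, against 3.37% and 2.33% of all tested genes. Means were higher with prednisolone for 85 and lower for 36, with a median difference of 0.05 against 0.02 over all tested genes. Of all tested genes 54.6% had a higher mean, the share to set beside the counts of each list below. In the 5 mice of low epididymis score the median of the 121 was -0.02.

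Rac1 and Cdc42, the main targets of DOCK proteins, varied little at their brightest probe sets. Rac1 read between 11.27 and 11.43 over the 8 arrays (0.05 ± 0.07, limma adjusted p = 0.87) and Cdc42 between 12.24 and 12.54 (0.06 ± 0.08, 0.864). The Cdc42 probe set of largest variance gave -0.06 ± 0.18, and the brightest one gave -0.03 in the 5 mice of low epididymis score. Rac2, the Rac of blood cells, read 10.31, 9.57, 9.80 and 9.71 with prednisolone and 9.35, 9.71, 10.37 and 9.22 with vehicle, a difference of 0.18 ± 0.26 (0.87). Rac2 thus peaked in prednisolone mouse 1 and vehicle mouse 3, the mice of highest leukocyte score. Of 8 tested GTPase genes, 6 were higher and 2 lower. The 2 with the lowest p were Rhoq (0.22 ± 0.13), which acts in insulin-stimulated glucose transport, and Rhog (0.20 ± 0.17), an upstream activator of ELMO. Their limma adjusted p values were 0.768 and 0.802. In the 5 mice of low epididymis score Rhoq stood at 0.19 and Rhog turned to -0.07.

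Among binding partners of DOCK proteins, 10 of 17 tested genes were higher and 7 lower, with a median of 0.02. Their median was -0.02 in the 5 mice of low epididymis score. Elmo1, the ELMO adaptor of Dock1 and Dock2, read 8.27, 8.21, 8.18 and 8.29 with prednisolone and 8.72, 8.38, 8.84 and 8.46 with vehicle. The 4 prednisolone values all lie below the 4 vehicle values, a difference of -0.36 ± 0.11 with an adjusted p of 0.768, which misses the threshold. It was -0.36 in the 5 mice of low epididymis score. Most of the named blood cell genes lay below 0 in those mice. Rac2 stood at -0.10, Coro1a at -0.16, Arhgdib at -0.24 and Vav1 at -0.27. Ptprc stood at -0.09, Adgre1 at -0.13, Cd3e at -0.28, Nckap1l at -0.09, Was at -0.06 and Il10ra at -0.0027. Above 0 were Arhgap45 (0.01), Arhgap30 (0.04) and Arhgap25 (0.23). The part of blood cells in the Elmo1 difference was not tested. Elmo2, a second ELMO adaptor, had the other sign, at 0.19 ± 0.12 (0.768).

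Ankrd28, an ankyrin protein that binds Dock1, read 7.59, 7.93, 7.45 and 7.61 with prednisolone and 8.73, 7.63, 8.14 and 8.29 with vehicle (-0.56 ± 0.22, adjusted p = 0.768). Its highest values were those of vehicle mice 1 and 4, and in the 5 mice of low epididymis score its difference was -0.34. The partners of Dock8 did not pass the test. Wipf1, which links Dock8 to the actin regulator WASP, stood at 0.11 ± 0.24 (0.916), Lrch1, an inhibitor of Dock8, at 0.00 ± 0.17 (0.995), Mob1a, a MOB adaptor of the Hippo pathway, at -0.04 ± 0.08 (0.909) and the Hippo kinase Stk4 at 0.04 ± 0.08 (0.918). Wipf1 turned to -0.18, Lrch1 to -0.12 and Stk4 to -0.02 in the 5 mice of low epididymis score. Crk, an adaptor of Dock1, stood at 0.08 ± 0.11 (0.866).

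Effectors that turn active Rac and Cdc42 into actin assembly were higher for 28 of 33 tested genes and lower for 5, where 54.6% of all tested genes were higher. Their median was 0.07, and 0.01 in the 5 mice of low epididymis score. Cdc42ep4, a Cdc42 effector protein, read 7.54, 7.65, 7.83 and 7.60 with prednisolone and 7.18, 7.57, 7.16 and 7.15 with vehicle (0.39 ± 0.12, adjusted p = 0.768). Vehicle mouse 2 alone overlaps the prednisolone group. Brk1, a subunit of the WAVE complex, stood at 0.14 ± 0.07 (0.768). The blood cell genes Was (WASP, 0.21 ± 0.16, 0.789), Nckap1l (a WAVE subunit, 0.33 ± 0.30, 0.812) and Coro1a (coronin, 0.02 ± 0.22, 0.983) did not separate the groups. Was turned to -0.06, Nckap1l to -0.09 and Coro1a to -0.16 in the 5 mice of low epididymis score.

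Exchange factors with a DH domain were higher for 16 of 26 tested genes and lower for 10, with a median of 0.02. In the 5 mice of low epididymis score their median was -0.09. The 2 with the lowest p had the sign opposite to Dock8. Dnmbp, a Cdc42 exchange factor also called Tuba, read 7.45, 7.65, 7.29 and 7.52 with prednisolone and 7.93, 7.61, 7.63 and 7.78 with vehicle (-0.26 ± 0.11, adjusted p = 0.768), and Plekhg5 stood at -0.22 ± 0.10 (0.768). Vav1, the Rac exchange factor of blood cells, stood at 0.10 ± 0.25 (0.927).

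Proteins that switch Rac and Cdc42 off or hold them inactive were higher for 14 of 20 tested genes and lower for 6. Their median was 0.05, and 0.01 in the 5 mice of low epididymis score. Arhgap25, a Rac GTPase-activating protein of blood cells, averaged 8.00 ± 0.14 with prednisolone and 7.65 ± 0.17 with vehicle (SD, n = 4; difference 0.35 ± 0.11, limma adjusted p = 0.768). Arhgap32 stood at -0.30 ± 0.13 (0.768), and Arhgdib, the GDP dissociation inhibitor of blood cells, at 0.10 ± 0.23 (0.922).

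Receptors and bridging proteins for apoptotic cells, which signal to Dock1, were higher for 11 of 17 tested genes and lower for 6, with a median of 0.07, and of -0.10 in the 5 mice of low epididymis score. Mfge8, a secreted bridge between phosphatidylserine and integrins, read 12.13, 13.00, 12.09 and 12.29 with prednisolone and 11.83, 11.83, 11.61 and 11.69 with vehicle. The groups do not overlap (0.64 ± 0.19, adjusted p = 0.768), and the difference was 0.45 in the 5 mice of low score. Itgb3, a subunit of such an integrin, stood at 0.43 ± 0.21 (0.768). Of the 121 pathway genes, 2 had groups apart with prednisolone above, Mfge8 and Nck1, and 1 with prednisolone below, Elmo1, where 1.81% of all tested genes were above and 1.39% below. These shares are not above those of all genes. Nck1, an adaptor of actin signalling, is named because its groups were apart.

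**Figure D5:**
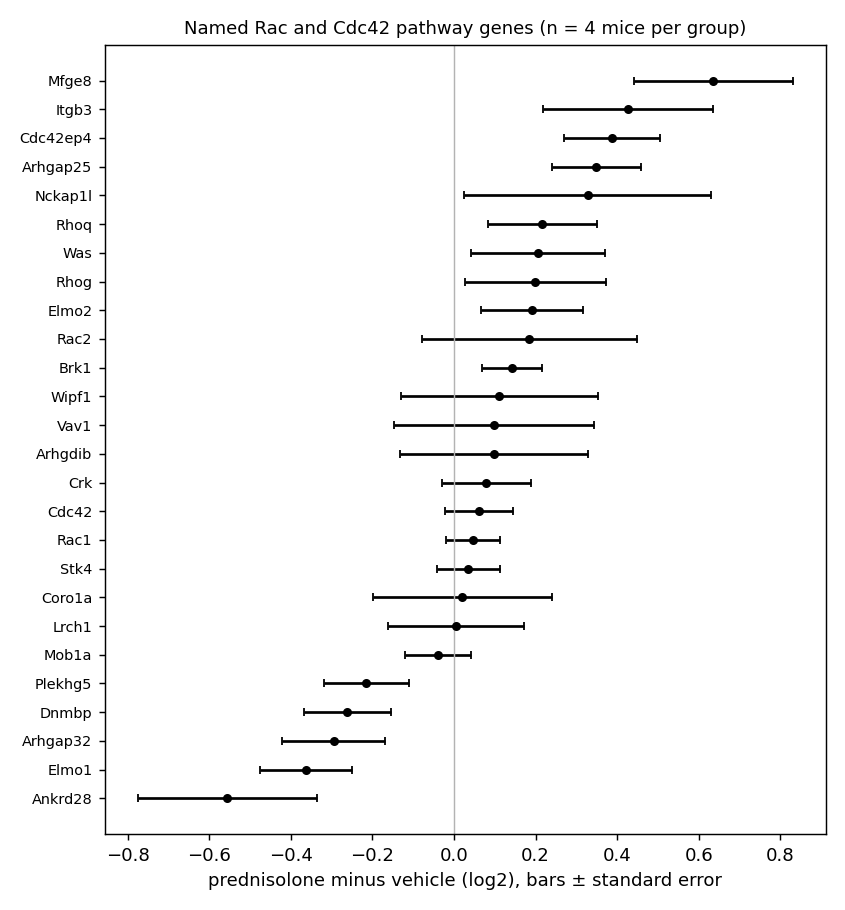
Difference of prednisolone minus vehicle means (horizontal axis, log2, bars ± standard error, n = 4 mice per group) of the 26 named pathway genes, in order of the difference. They run from -0.56 (Ankrd28) to 0.64 (Mfge8), and 0 passed an adjusted p of 0.05.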

How the data were processed

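The deposited values are log2 expression values made by the authors with RMA in Affymetrix Expression Console, per the labels and the submitters' processing notes, from Affymetrix Mouse Gene 2.0 ST arrays. RMA corrects background, equalises array distributions and summarises probes, so differences at low signal are compressed and a shift common to all genes is removed. Partek 6.6 is also named there, with no role. The genome build is not given in the sources used here. Of 41345 probe sets, 23521 had 1 gene symbol in the platform annotation. The brightest probe set of each gene was kept, and the dimmest 33.3% of 22180 genes were left out, leaving 14787. The groups were compared in limma 3.58.1 (R 4.3.3, lmFit and eBayes, no covariate), with Benjamini-Hochberg adjustment over all tested genes and a threshold of 0.05. The fit was tested on simulated data. Array medians lay between 6.09 and 6.13, and the number of arrays limits the precision. The labels call the replicates biological, with no statement on litters or cages.

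The DOCK genes, the pathway and marker lists, the alternatives and the naming rule were chosen with earlier results of these data known. Named were the DOCK genes, 15 fixed pathway genes, the 2 genes of lowest p in each pathway list, 5 genes nearest to Dock8 and 3 each to Dock2 and Dock10 (no predicted genes or small RNAs), and the markers Ptprc, Adgre1, Cd3e, Adipoq and Gpx5. Alternatives changed the filter, normalization, probe set, variance model, array weights and covariates, added a replicate block, and left out mice. Promoters and their motifs came from a RefSeq table of GRCm38.p6, searched on both strands. The other marker scores differed as follows (prednisolone minus vehicle, two-sided exact permutation p): adipocyte 0.15 (0.2), progenitor 0.02 (0.857), smooth muscle -0.04 (0.886), mesothelial -0.09 (0.829), epididymis -0.69 (0.657), spermatid -0.51 (0.457), skeletal muscle 0.17 (0.143) and erythroid, with 1 measured gene, -0.09 (0.686), each 0.914 after adjustment over the 15 lists. Figures were drawn with matplotlib 3.10.9.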

Additional observations from a re-analysis of the deposited data

Results flagged for a closer look

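Of 134 groups of 4 values checked, 5 held a value far from the other 3, where chance alone gives about 1 in 20 groups. None of the 5 was a DOCK gene. In prednisolone mouse 3, Stk4 read 8.09 against 8.25 to 8.28 in the other prednisolone mice. The same mouse read 9.96 for Rhoq against 9.53 to 9.59, and its spermatid marker score was 0.996 against -0.77 to -0.55. Arhgdib read 8.56 in prednisolone mouse 1 against 8.08 to 8.14. Cdc42ep4 read 7.57 in vehicle mouse 2 against 7.15 to 7.18 in the other vehicle mice.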

How the results depend on the processing

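Under 20 alternatives, 0 genes and 0 pathway genes passed the adjusted threshold, as with the main settings, and the lowest adjusted p ran from 0.0934 to 0.979. The Dock8 difference kept its sign in all 20, at its lowest 0.92 (prednisolone mouse 4 left out) and at its highest 1.19 (prednisolone mouse 2 left out). Dock1 and Dock9 also kept their sign in all 20, Dock2 and Dock4 in 19, Dock6 and Dock10 in 18, Dock5 in 17 and Dock11 in 15. No DOCK difference moved by more than the SD between mice. The fit without the 3 arrays of high epididymis score rests on only 2 vehicle mice. Its standard error was larger than over 8 mice for some DOCK genes, such as Dock8 (0.22 against 0.20). For others it was smaller, such as Dock2 (0.20 against 0.25). Among 41 other named genes 23 kept their sign in every alternative. With the replicate number as a block, the Dock8 difference was 1.09 ± 0.21, and 504 genes had an unadjusted p under 0.05 against 842 without the block. Deviations of mice with the same number correlated at -0.19, -0.58, 0.13 and -0.28. Epididymal transcripts also enter these deviations, so the values cannot tell whether such mice shared a litter or cage.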
